A study of Mus musculus with 16 samples.

Results

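The tumour suppressor p53, encoded in the mouse by Trp53, and 9 genes that it switches on after DNA damage were examined for mapped single-strand breaks: Mdm2, Ccng1, Cdkn1a, Bbc3, Bax, Phlda3, Trp53inp1, Zmat3 and Sesn2. These 10 genes of the 21938 protein-coding genes in the GENCODE M21 annotation were chosen by name, and a break peak was assigned to a gene when it shared 1 bp or more with the gene body or the 5 kb on either side. By that rule 91 peaks lay at the genes: 23 of 28559 with DMSO and 17 of 15544 with talazoparib in WT cells, and 30 of 35459 with DMSO and 21 of 23983 with talazoparib in KO cells.

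The peaks come from SSB-seq, in which DNA polymerase I from E. coli labels genomic DNA at nicks with digoxigenin, and the labelled fragments are pulled down (the IP) and sequenced beside unselected input DNA. The cells were embryonic stem cells of strain C57BL/6JRj in serum-free 2i medium with LIF, either wild type (WT) or labelled "KO; Tdg-depleted" (KO), that is, without the DNA glycosylase TDG, which starts repair of thymine paired with guanine and of oxidised 5-methylcytosine. Each genotype received DMSO, for a time not given in the sources used here, or 5 nM talazoparib, an inhibitor that traps poly(ADP-ribose) polymerases on DNA, for 24 h, and each of the 4 conditions has 3 libraries of IP and 1 of input DNA. The growth protocol, the same for every library, includes 5 uM 4-OHT for 2 h, which excises a Tdg minigene, and does not say whether WT cells carried the minigene or received 4-OHT. Whether the lines are single clones is not given either, and DNA tags cannot check the cell type against markers. WT and KO libraries ran on different flow cells, 2 per genotype, so genotype and sequencing run cannot be told apart.

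Each condition has 1 deposited list, called on its IP libraries together. No value below therefore has a spread between replicates, no difference between conditions could be tested, and the 95% intervals are exact Poisson intervals that cover counting error only. The authors' fold over input was at least 4 for every peak. A gene without a peak had nothing that met all limits of the call, which is not a measured absence of breaks. The pooled IP held 66.4 to 87.0 M tags, and the input library 24.5 to 38.1 M. A normalised tag count is the number of IP tags in a peak per 10000000 IP tags, and an input tag count is the unscaled number in the input library. Peak positions are printed in mm10 as deposited, where it is not stated whether starts count from 0 or 1.

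p53 is a transcription factor that is kept scarce by the ubiquitin ligase Mdm2 and is stabilised when kinases such as ATM and ATR signal broken DNA or stalled replication forks. It binds tandem decamers near its targets and raises the expression of genes that stop the cell cycle, promote apoptosis or adjust metabolism, among them genes of its own inhibitors, which closes a feedback loop. In mouse embryonic stem cells it is also known to repress Nanog and so to favour differentiation.

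The promoters show the DNA at the gene starts, not the DNA under every peak at the genes. In WT, 11 of 23 peaks with DMSO and 8 of 17 with talazoparib lay within 1 kb of a transcript start of their gene. In KO these were 14 of 30 and 13 of 21. By their medians the other peaks held fewer CG dinucleotides, as given below. RefSeq promoters (250 bases before to 50 after a start, build GRCm38.p6) were matched for 8 of the 10 genes, giving 11 promoters (3 of them, which overlap in part, of Bbc3 and 2 of Cdkn1a), with Zmat3 and Trp53inp1 unmatched. A peak covered part of 4 of the 11 in every list, those of Trp53 (chr11:69580109-69580408, plus strand), Mdm2 (chr10:117710709-117711008, minus strand), Sesn2 (chr4:132510407-132510706, minus strand) and the downstream promoter of Cdkn1a (chr17:29093519-29093818, plus strand). They are printed 5′ to 3′ with each CG dinucleotide in capitals, the dinucleotide that carries DNA methylation and that TDG helps to demethylate.
Trp53: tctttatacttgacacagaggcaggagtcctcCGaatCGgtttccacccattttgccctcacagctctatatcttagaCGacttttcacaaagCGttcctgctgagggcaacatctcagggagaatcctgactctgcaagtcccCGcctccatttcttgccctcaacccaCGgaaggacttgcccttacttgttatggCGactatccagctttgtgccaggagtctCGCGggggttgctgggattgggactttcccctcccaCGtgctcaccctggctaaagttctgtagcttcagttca
Mdm2: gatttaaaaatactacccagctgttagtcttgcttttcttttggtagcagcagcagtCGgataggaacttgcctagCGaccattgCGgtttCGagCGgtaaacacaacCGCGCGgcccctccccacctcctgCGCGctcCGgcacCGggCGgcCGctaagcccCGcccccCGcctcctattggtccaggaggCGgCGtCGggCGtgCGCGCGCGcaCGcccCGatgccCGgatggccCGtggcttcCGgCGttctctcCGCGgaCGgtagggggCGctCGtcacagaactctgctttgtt
Sesn2: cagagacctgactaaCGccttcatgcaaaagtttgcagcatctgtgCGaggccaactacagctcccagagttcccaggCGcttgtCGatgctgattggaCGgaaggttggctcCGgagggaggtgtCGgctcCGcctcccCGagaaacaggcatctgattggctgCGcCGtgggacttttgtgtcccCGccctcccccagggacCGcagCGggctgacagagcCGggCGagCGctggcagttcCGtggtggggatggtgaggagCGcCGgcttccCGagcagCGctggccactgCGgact
Cdkn1a, downstream: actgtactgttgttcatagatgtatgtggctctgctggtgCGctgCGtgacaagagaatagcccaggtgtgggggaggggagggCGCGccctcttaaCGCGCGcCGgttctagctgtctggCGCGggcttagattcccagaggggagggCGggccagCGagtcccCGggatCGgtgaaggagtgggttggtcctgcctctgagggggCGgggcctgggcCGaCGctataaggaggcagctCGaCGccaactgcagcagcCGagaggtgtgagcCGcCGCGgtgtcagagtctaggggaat
CG dinucleotides numbered 35 in the Mdm2 promoter, 23 in Sesn2, 23 in the downstream Cdkn1a promoter and 10 in Trp53. Over the 11 promoters the median was 23, against 7 over all 32851 RefSeq promoters.

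The next 2 promoters are shown because each holds a candidate full p53 site and each was under a peak in some lists and not in others. The upstream Cdkn1a promoter (chr17:29090729-29091028, plus strand) has 2 CG dinucleotides and was under a peak in WT DMSO and KO talazoparib. The Bax promoter (chr7:45466849-45467148, minus strand) has 19 and was under a peak in every list except WT DMSO.
Cdkn1a, upstream: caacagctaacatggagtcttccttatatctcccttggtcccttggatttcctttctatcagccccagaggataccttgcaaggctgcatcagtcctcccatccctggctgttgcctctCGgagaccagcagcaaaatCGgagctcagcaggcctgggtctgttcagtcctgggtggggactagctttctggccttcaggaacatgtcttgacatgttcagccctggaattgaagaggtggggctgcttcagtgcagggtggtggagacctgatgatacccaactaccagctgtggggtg
Bax: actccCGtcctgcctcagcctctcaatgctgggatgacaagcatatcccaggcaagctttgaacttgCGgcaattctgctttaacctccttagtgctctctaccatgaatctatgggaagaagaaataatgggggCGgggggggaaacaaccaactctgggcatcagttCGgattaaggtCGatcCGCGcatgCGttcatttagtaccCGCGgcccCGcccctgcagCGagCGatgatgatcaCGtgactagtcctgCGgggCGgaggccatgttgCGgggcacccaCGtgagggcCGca
Counted together, 9 of the 11 promoters lay at least in part under a WT DMSO peak, 6 under a WT talazoparib peak, 10 under a KO DMSO peak and 10 under a KO talazoparib peak. The shares over all RefSeq promoters were 28.5%, 21.5%, 35.7% and 28.3% in the same order. The Bbc3 promoters all lay under the same peak in each list that had one there, so that peak is counted more than once. The 11 promoters were also richer in CG dinucleotides than all promoters, as given above, and the part of that was not tested.

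The p53 decamer consensus was searched in its usual form on both strands, where its palindromic form reads the same, and a full site was taken as 2 decamers with 0 or 1 base between them, both cores whole and at most 2 mismatches elsewhere. A full site therefore overlaps the decamer matches inside it. A decamer was found in 5 of the 11 promoters (45.5%) against 8.36% of all 32851, and a full site in 2 of the 11 (18.2%) against 0.320%. The genes were chosen by name as p53 and its targets, near which p53 binds such decamers, so these promoter shares say nothing about breaks. Of the peaks at the genes, 11 of 23 in WT DMSO (47.8%), 6 of 17 in WT talazoparib (35.3%), 11 of 30 in KO DMSO (36.7%) and 8 of 21 in KO talazoparib (38.1%) held a decamer. Over all peaks of the lists the shares were 21.04%, 17.98%, 25.4% and 22.6%. Peaks at the genes were longer than the list's median in 3 lists, with medians of 869 against 630 bp in WT DMSO, 927 against 722 bp in KO DMSO and 811 against 645 bp in KO talazoparib, and shorter in WT talazoparib (500 against 629 bp); the part of length in these shares was not tested. A match is a run of letters, not a bound site.

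Full sites lay under peaks at 3 of the genes and are shown with the core letters in capitals. The Cdkn1a site (chr17:29090928-29090947, plus strand) lies at -48 bases from the annotated gene start, matched with 1 mismatch, and was under a peak in WT DMSO and KO talazoparib. The Bax site (chr7:45467079-45467099, minus strand) lies at -201 bases from the gene start, has 1 base between its decamers and 2 mismatches, and was under a peak in WT talazoparib, KO DMSO and KO talazoparib. The Ccng1 site (chr11:40754936-40754955, minus strand) lies 356 bases inside the gene, matched with 1 mismatch, and was under a peak in WT DMSO and KO DMSO.
Cdkn1a site: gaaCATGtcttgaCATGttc
Bax site: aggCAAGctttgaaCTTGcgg
Ccng1 site: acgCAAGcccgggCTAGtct
No full site was under a peak in all 4 lists.

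All 10 genes had a peak in at least 3 lists, and 7 of the 10 had one in every list. In WT DMSO 9 of the 10 genes had a peak, against 60.9% of all protein-coding genes. In WT talazoparib the count was 8 against a background of 48.8%. For KO DMSO it was 10 against 66.8%, and for KO talazoparib 10 against 58.9%. A peak in all 4 lists was found at 39.0% of protein-coding genes. Restricting the background to the 12095 genes as long as these (3018 to 31223 bp) gave 58.0%, 45.3%, 64.0% and 56.0%. The genes without a peak were Phlda3 in WT DMSO and Ccng1 and Bbc3 in WT talazoparib. The counts depend on the fold: with a fold over input of at least 6 in place of 4, 5 genes kept a peak in WT DMSO against a background of 27.7%, and 3 in KO talazoparib against 25.1%.

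**Figure D1:**
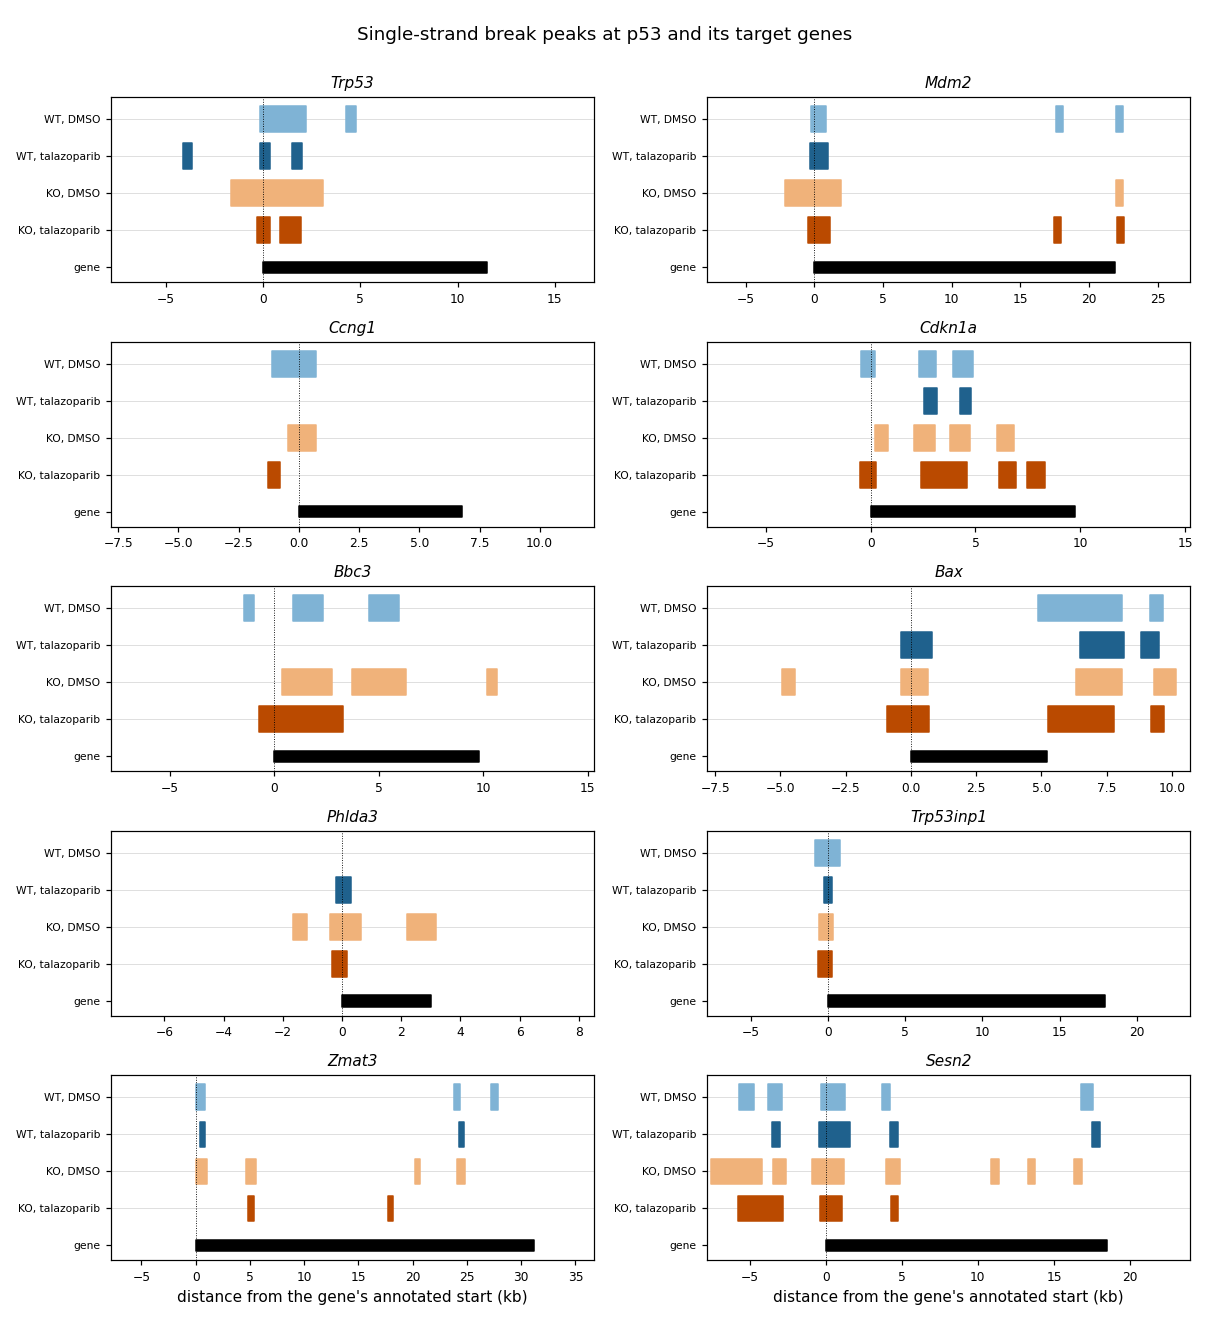
Map of the 91 peaks at the 10 genes, with distance from the annotated gene start in kb on the x axis, in the direction of transcription, and the 4 lists in rows above the gene body (black). Peaks sit over or next to the gene start for most genes and lists, and Ccng1 and Bbc3 have none in WT talazoparib, nor Phlda3 in WT DMSO.

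By their medians, peaks at gene starts held more tags than the other peaks at these genes, though the highest Bax peak in WT DMSO and both KO lists and the highest Sesn2 and Zmat3 peaks in KO talazoparib lay elsewhere. A peak within 1 kb of an annotated transcript start was listed for 8 genes with DMSO and 8 with talazoparib in WT, and for 10 with DMSO and 9 with talazoparib in KO, against 47.4%, 36.6%, 56.0% and 45.9% of protein-coding genes. The start peak was present in all 4 lists for 5 genes, Trp53, Mdm2, Cdkn1a, Trp53inp1 and Sesn2. The 2 genes missing it only in WT talazoparib were Ccng1 and Bbc3, the 2 missing it only in WT DMSO were Bax and Phlda3, and Zmat3 missed it only in KO talazoparib. Any annotated transcript start of the gene counts here, not only the first. The start peaks therefore include Cdkn1a peaks at 6.44 kb in KO DMSO and at 6.54 and 7.88 kb in KO talazoparib, and the Bbc3 peaks near 5 kb. Peaks at the genes' own starts had a median of 17 normalised tags with DMSO and 8.59 with talazoparib in WT, and of 18.3 and 17.5 in KO. The other peaks at the same genes had medians of 4.80, 3.70, 5.53 and 6.85. The start peaks also held more CG dinucleotides, with medians of 5.55, 8.24, 5.18 and 4.34 per 100 bp against 1.53, 1.80, 1.84 and 1.5 in the others. Input tags moved the same way, with medians of 10.5, 4.25, 9.25 and 11 in start peaks against 3.5, 1, 2.5 and 3.75. The part of CG content in these differences was not tested.

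**Figure D2:**
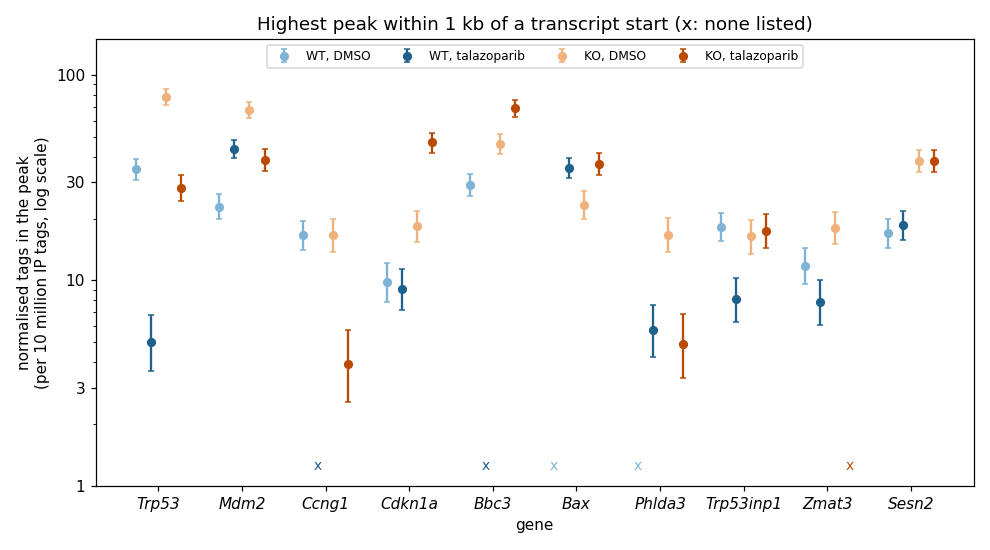
Normalised tags (per 10000000 IP tags, log axis) in the highest peak within 1 kb of a transcript start for each gene, 1 point per list with its exact Poisson 95% interval for counting error; a cross marks a list with no such peak. The highest peak can lie at different transcript starts of a gene in different lists, as at Bbc3. Trp53 reaches 78.2 in KO DMSO and 5.01 in WT talazoparib, and the crosses fall on Ccng1, Bbc3, Bax, Phlda3 and Zmat3.

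Trp53, the gene of the factor itself, had its highest peak within 1 kb of a transcript start in every list (gene body chr11:69580359-69591873, plus strand). The highest start peak held 34.7 normalised tags in WT DMSO (95% interval 30.9 to 38.8, 2355 bp), 5.01 in WT talazoparib (3.61 to 6.77, 500 bp), 78.2 in KO DMSO (71.7 to 85.1, 4770 bp) and 28.2 in KO talazoparib (24.3 to 32.5, 1083 bp). The input library held 24.5, 3, 35.5 and 17 tags in those peaks. KO DMSO was thus the highest and WT talazoparib the lowest, with intervals that do not overlap each other. Peak length and input tags had the same order over the lists. Per kb of peak the values were 14.7, 10.0, 16.4 and 26.0 normalised tags, so by density KO talazoparib was the highest and WT talazoparib still the lowest. The same stretch, chr11:69578695-69583465, was called as 1 long peak in both DMSO lists and as 2 separate peaks in both talazoparib lists. The further peak there in WT talazoparib, in the first part of the gene body at 1.74 kb, held 2.92 normalised tags on 1 input tag, and the one over the start in KO talazoparib held 14.2 on 9. A start of Wrap53, which is transcribed the other way and encodes a telomerase cofactor, lies within 1 kb of the start peaks, so the signal cannot be given to either gene alone. Away from the start, WT DMSO had a 500 bp intronic peak at chr11:69584634-69585134 with 3.68 normalised tags on 3 input tags. WT talazoparib had one centred at -3.87 kb, chr11:69576240-69576740, with 2.98 on 0.5. Neither of these was in another list.

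Mdm2, the ubiquitin ligase that marks p53 for degradation, lies at chr10:117688875-117710758 on the minus strand. Its start peak held 22.9 normalised tags in WT DMSO (19.8 to 26.3, 1131 bp), 43.7 in WT talazoparib (39.3 to 48.4, 1308 bp), 67.5 in KO DMSO (61.5 to 73.9, 4117 bp) and 38.8 in KO talazoparib (34.2 to 43.8, 1585 bp). Input tags in these peaks were 15, 14, 24 and 18. In WT the talazoparib value was the higher one over peaks of similar length, with intervals that do not overlap. The unscaled WT input counts were close, but the input libraries differ in total. Scaled to that total and to peak length, input was also higher with talazoparib, at 1.16 times an even spread over the genome against 0.921. The tag density of the start peak ranked above 99.4% of the peaks in the WT talazoparib list and above 97.4% of those in WT DMSO, against 86.9% and 90.4% in the KO lists. In KO the DMSO peak held more tags over a longer stretch, and per kb it was the lower of the pair, at 16.4 normalised tags per kb against 24.5 with talazoparib. Beyond the 3′ end, the region chr10:117688239-117688768 was listed in every condition except WT talazoparib, with 4.08 normalised tags in WT DMSO, 4.99 in KO DMSO and 8.05 in KO talazoparib, on 3.5, 3 and 5 input tags. An intronic region 17.8 kb from the start, chr10:117692630-117693276, was listed in WT DMSO with 2.93 normalised tags and in KO talazoparib with 3.61, on 2.5 and 1 input tags. WT talazoparib was the only list with the start peak alone.

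Ccng1 encodes cyclin G1, which brings a phosphatase to Mdm2 and takes part in the same feedback (chr11:40748552-40755311, minus strand). It had 1 peak in 3 lists and none in WT talazoparib. WT DMSO and KO DMSO both listed 16.6 normalised tags across the start (14.0 to 19.5 over 1829 bp, and 13.7 to 19.9 over 1164 bp), on 7 and 5.5 input tags. KO talazoparib listed 3.91 (2.55 to 5.73, 500 bp) on 2.5 input tags in a peak that did not reach the gene start, its centre being at -1.04 kb. The start of Ccng1 was thus covered in both DMSO lists and in neither talazoparib list. The full p53 site printed above is inside both DMSO peaks and outside the KO talazoparib peak. The same 4 counts of peaks were found at 691 other protein-coding genes.

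Cdkn1a encodes p21, the inhibitor of cyclin-dependent kinases through which p53 arrests the cell cycle (chr17:29090976-29100727, plus strand). It had 3 peaks with DMSO and 2 with talazoparib in WT, and 4 with either treatment in KO. At the upstream promoter, in the region chr17:29090445-29091809, WT DMSO listed 5.17 normalised tags (3.77 to 6.92) on 2.5 input tags, KO DMSO 6.43 (4.68 to 8.62) on 3 and KO talazoparib 10.2 (7.92 to 12.9) on 6.5. The KO DMSO peak began past the gene start and left out the full p53 site, which the other 2 covered, and WT talazoparib had no peak there.

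Most Cdkn1a signal lay at the CG-rich downstream promoter, in chr17:29093023-29095844. The highest peak there held 9.83 normalised tags in WT DMSO (7.86 to 12.1, 809 bp), 9.07 in WT talazoparib (7.15 to 11.4, 626 bp), 18.4 in KO DMSO (15.3 to 21.9, 1044 bp) and 47.0 in KO talazoparib (41.9 to 52.5, 2193 bp). Input tags were 8, 3.5, 6.5 and 33. The first 3 lists had a further peak just downstream with 7.30, 4.71 and 12.7 normalised tags on 5.5, 2 and 7 input tags, whereas KO talazoparib listed the whole stretch as 1 peak. The WT values were the low ones and did not differ beyond their intervals. The KO talazoparib value was the highest, over the longest peak and with the most input tags. A start of AC167363.2 lies within 1 kb of these peaks.

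Only KO lists had Cdkn1a peaks further into the gene. The region chr17:29097021-29097926 held 6.58 normalised tags in KO DMSO and 7.08 in KO talazoparib on 2.5 and 4 input tags. KO talazoparib alone listed chr17:29098432-29099285, with 8.81 on 5.5. Whether the genotypes differ there was not tested, and genotype and flow cell cannot be told apart.

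Bbc3 encodes Puma, a BH3-only protein that triggers mitochondrial apoptosis (chr7:16308393-16318205, plus strand). It had 3 peaks with DMSO and none with talazoparib in WT, and 3 and 1 in KO. Near its GC-rich starts, in chr7:16307661-16311686, WT DMSO listed 19.5 normalised tags (16.7 to 22.7, 1410 bp), KO DMSO 40.0 (35.4 to 45.0, 2390 bp) and KO talazoparib 68.9 (62.7 to 75.5, 4025 bp), on 15, 15.5 and 43.5 input tags. Per kb of peak these were 13.8, 16.7 and 17.1, so the KO lists differed in the length of the peak and little in its tag density. A further region around 5 kb, chr7:16312098-16314683, was listed in both DMSO conditions only. It held 29.3 normalised tags in WT DMSO (25.8 to 33.1) and 46.4 in KO DMSO (41.5 to 51.8), on 18.5 and 21.5 input tags. These were the highest values at the genes among DMSO peaks with no talazoparib counterpart in the same genotype. Weak 500 bp peaks stood at -1.21 kb in WT DMSO (chr7:16306933-16307433, 3.28 normalised tags on 3 input tags) and past the 3′ end in KO DMSO (chr7:16318568-16319068, 4.99 on 2.5).

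Bax encodes the protein that opens the outer mitochondrial membrane in apoptosis (chr7:45461697-45466898, minus strand). Its start, chr7:45466084-45467798, was under a peak in 3 lists, with 35.4 normalised tags in WT talazoparib (31.5 to 39.7, 1208 bp), 23.4 in KO DMSO (19.9 to 27.3, 1043 bp) and 37.0 in KO talazoparib (32.5 to 41.9, 1577 bp). Input tags were 16.5, 12.5 and 21. WT DMSO had no peak at the start. The WT talazoparib peak was the highest at the genes with no DMSO counterpart in the same genotype, and its density ranked above 98.7% of the list.

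In all 4 lists Bax also had peaks beyond or across its 3′ end, beside the neighbouring gene Ftl1, which encodes the ferritin light chain, with starts of Gm10252 and Gm22133 nearby. The region chr7:45458729-45462015 held 31.1 normalised tags in WT DMSO (27.5 to 35.0), 14.1 in WT talazoparib (11.7 to 16.9), 30.6 in KO DMSO (26.6 to 35.0) and 49.4 in KO talazoparib (44.2 to 55.0), on 26.5, 6, 6.5 and 32.5 input tags. The region chr7:45456734-45458099 held 4.77, 5.07, 8.46 and 7 on 3.5, 1.5, 3.5 and 4.5 input tags. These 2 regions were the only ones that gave Bax a peak in WT DMSO. The Ftl1 start lies within 1 kb of the peak of the longer region in every list. In the shorter region it lies that near to the WT talazoparib peak only. KO DMSO had 1 more peak at -4.71 kb, chr7:45471353-45471853, with 4.05 on 2 input tags.

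Phlda3 encodes a small membrane-binding protein that represses the survival kinase Akt (chr1:135766119-135769136, plus strand). WT DMSO had no peak at it. The start peak held 5.73 normalised tags in WT talazoparib (4.23 to 7.60, 500 bp), 16.7 in KO DMSO (13.8 to 20.0, 1056 bp) and 4.89 in KO talazoparib (3.36 to 6.89, 500 bp), on 3, 8 and 2.5 input tags. KO DMSO was the high one, and the talazoparib values of the genotypes lay within each other's intervals. KO DMSO alone also listed chr1:135764454-135764954 upstream, with 4.34 on 2 input tags, and chr1:135768314-135769291 over the 3′ part, with 7.88 on 2.

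Trp53inp1, which encodes a p53-induced nuclear protein that promotes apoptosis and autophagy, had exactly 1 peak in each list, over its start (gene body chr4:11156431-11174379, plus strand). It held 18.3 normalised tags in WT DMSO (15.6 to 21.4, 1630 bp), 8.11 in WT talazoparib (6.30 to 10.3, 500 bp), 16.4 in KO DMSO (13.5 to 19.7, 896 bp) and 17.5 in KO talazoparib (14.5 to 20.99, 895 bp). Input tags were 11, 4.5, 9.5 and 11. WT talazoparib was low and the other 3 overlapped in their intervals. Per kb of peak the order within WT was turned, at 16.2 with talazoparib against 11.2 with DMSO. One peak in each list was also the pattern of 1380 other protein-coding genes.

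Zmat3 encodes an RNA-binding zinc finger protein that controls the stability and splicing of transcripts (chr3:32334792-32366014, minus strand). Its start peak, within chr3:32364958-32366020, held 11.8 normalised tags in WT DMSO (9.63 to 14.3, 869 bp), 7.87 in WT talazoparib (6.09 to 10.0, 500 bp) and 18.1 in KO DMSO (15.1 to 21.6, 1062 bp), on 8, 4 and 10 input tags. KO talazoparib had none there. A region 24.3 kb into the gene, chr3:32341163-32342194, was listed by the same 3 conditions with 3.68, 3.04 and 6.07 normalised tags on 3, 1 and 2.5 input tags. Both KO lists held chr3:32360444-32361374, with 8.60 in KO DMSO and 4.37 in KO talazoparib on 2.5 and 2 input tags. The remaining Zmat3 peaks were each in 1 list only. They were chr3:32338179-32338812 in WT DMSO (4.83 on 3.5), chr3:32345321-32345821 in KO DMSO (3.98 on 1) and chr3:32347826-32348326 in KO talazoparib (3.39 on 1.5).

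Sesn2 encodes sestrin 2, a stress protein that restrains mTORC1 signalling (chr4:132492032-132510501, minus strand), and it had the most peaks of the 10 genes summed over the lists, though not in KO talazoparib, where Cdkn1a had more: 5 with DMSO and 4 with talazoparib in WT, and 7 and 3 in KO. The start peak held 17 normalised tags in WT DMSO (14.4 to 20.0, 1549 bp), 18.6 in WT talazoparib (15.8 to 21.8, 2039 bp), 38.2 in KO DMSO (33.7 to 43.1, 2133 bp) and 38.2 in KO talazoparib (33.6 to 43.2, 1456 bp). Input tags were 10.5, 5.5, 9 and 19. Within each genotype the treatments lay inside each other's intervals, and both KO values lay above both WT values without overlap. A start of Gm12981 lies within 1 kb of this peak.

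The region upstream of Sesn2, chr4:132513151-132518057, was also in every list. WT DMSO had 2 peaks there with 10.7 and 13 normalised tags on 8 and 11 input tags, and WT talazoparib 1 with 4.89 on 2. KO DMSO had 2 with 11.4 and 37.7 on 6 and 19.5 input tags, and KO talazoparib 1 with 42.9 on 14.5. A further KO talazoparib peak in the merged region, with 4.82 on 2, lay more than 5 kb from the gene and enters only the ratio for the region given below. The WT talazoparib value was the lowest, and the long KO stretches carried as many tags as the start itself. An intronic region, chr4:132505607-132506801, was the other one in all 4 lists. It held 3.05, 3.70, 9.18 and 6.70 normalised tags on 2, 1, 4.5 and 3 input tags. Its WT DMSO and WT talazoparib peaks shared no base and were joined only through the KO DMSO peak. The 3′ region chr4:132492491-132494152 was in every list except KO talazoparib, with 5.52, 2.86 and 3.76 on 2.5, 1 and 1. There the WT talazoparib and KO DMSO peaks were joined only through the WT DMSO peak. KO DMSO alone listed chr4:132496719-132497219 (3.47 on 1) and chr4:132499132-132499632 (3.61 on 1). No other protein-coding gene had the same 4 peak counts.

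Merged over the 4 lists, the 91 peaks made 35 regions. Of these, 9 were in all 4 lists, 9 in 3, 4 in 2 and 13 in 1. A peak joined a region by sharing 1 bp or more with any peak in it, so not every pair in a region overlaps. Of all 60802 regions of the genome, 5756 were in 4 lists, 6834 in 3, 10756 in 2 and 37456 in 1. The 9 regions in every list were the starts of Trp53, Mdm2, Trp53inp1 and Sesn2, the downstream promoter of Cdkn1a, the 2 regions beside Ftl1 and the intronic and upstream regions of Sesn2. Among the regions in 1 list, 7 (20.0% of the 35) were in KO DMSO, the longest list, and over all regions 24.8% were in that list only.

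Presence with and without talazoparib was compared within each genotype, on regions merged over the lists of that genotype alone. In WT, 12 regions at the genes were in both lists, 11 with DMSO only and 4 with talazoparib only. In KO the counts were 16, 12 and 4. The DMSO lists were also the longer ones. With the same number of best-scoring peaks, 15526, from every list, WT had 7 regions with DMSO only and 7 with talazoparib only, and KO had 4 and 6. No share over all regions stands beside these equal-length counts, and what part list length has was not tested. Of the WT DMSO peaks at the genes, 12 of 23 (52.2%) shared 1 bp or more with a WT talazoparib peak, against 28.4% of the whole list. In the reverse direction it was 13 of 17 (76.5%) against 52.4%. In KO, 18 of 30 DMSO peaks (60.0%) met a talazoparib peak against 39.4% of the list, and 17 of 21 talazoparib peaks (81.0%) met a DMSO peak against 59.0%.

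Peaks that met a peak of the other treatment had a higher median than those that did not. Medians were 11.3 against 4.83 normalised tags in WT DMSO, 16.6 against 4.67 in KO DMSO and 17.5 against 3.76 in KO talazoparib. In WT talazoparib they were close, 5.07 against 4.72, and the peaks without a counterpart there included the Bax start peak at 35.4. The DMSO peaks without a counterpart included the Bbc3 peaks near 5 kb given above.

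Where a region was listed with both treatments, normalised tags per kb of peak were set against each other. In WT the 12 regions had a median talazoparib over DMSO ratio of 0.869 (range 0.538 to 1.65), with 5 above 1 (41.7%), beside a median of 0.948 and 42.3% above 1 over all 8069 such WT regions. In KO the 16 regions had a median of 1.22 (0.618 to 1.61), with 14 above 1 (87.5%), beside 1.13 and 69.6% over all 13904. The KO direction depends on the scale: on summed tags, without dividing by length, 8 of the 16 KO regions lay above 1 with a median of 1.03, beside a median of 0.965 and 45.8% above 1 over all KO regions. In WT, 3 of the 12 lay above 1 on summed tags with a median of 0.656, beside 0.829 and 33.4%. Between the 5th and the 95th percentile, all regions ran from 0.5998 to 1.49 in WT and from 0.758 to 1.68 in KO.

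At the genes 3 of the 28 regions (10.7%) fell outside that range, and 10.0% of all regions do so by construction. They are given as descriptions. The Mdm2 start in WT, at 1.65, stood above 98.0% of all WT regions. The Trp53 start in WT, at 0.538, stood above 1.93% of them, and the Phlda3 start in KO, at 0.618, above 0.834% of all KO regions. In KO the Mdm2 start stood at 1.49 and the Trp53 start at 1.47. Input density moved with these values, with talazoparib over DMSO ratios of 1.26 at the WT Mdm2 start, 0.598 at the WT Trp53 start and 0.579 at the KO Phlda3 start. Over all regions the median input ratio was 0.853 in WT and 1.34 in KO. The ratios also depend on where each list ended its peaks, as at the KO start of Mdm2, where the same pair gave 0.575 on summed tags. What part input and peak length have in the ratios was not tested.

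**Figure D3:**
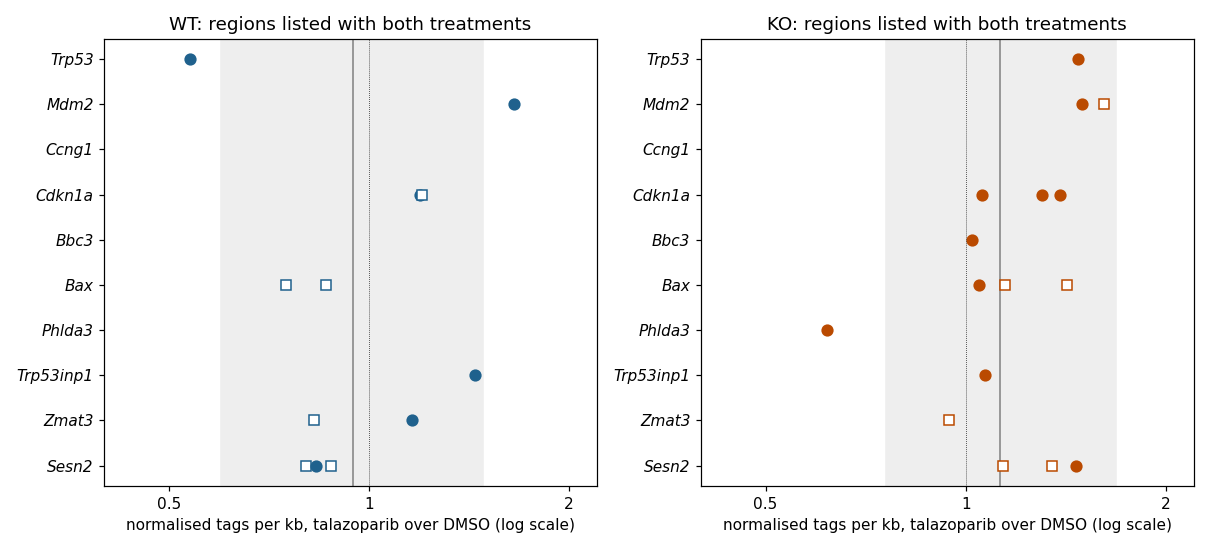
Talazoparib over DMSO ratio of normalised tags per kb of peak (log axis) for each region listed with both treatments, WT on the left and KO on the right; filled circles are regions at a transcript start, open squares the others, the grey line is the median of all regions and the band their 5th to 95th percentile. In WT the Mdm2 start lies right of the band and the Trp53 start left of it, and in KO the Phlda3 start lies left of it.

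Other genes of the pathway were counted by the same rule. Of 12 other regulators of p53, 9 had a WT DMSO peak, 9 a WT talazoparib peak, 11 a KO DMSO peak and 10 a KO talazoparib peak, and 7 had one in all 4 lists. The most peaks were at Usp7, a deubiquitinase of Mdm2 and p53, with 14, 3, 15 and 8 in that order of lists. Mdm4, the Mdm2 relative that inhibits p53, had 5, 2, 8 and 5, and Trp73, a p53 family member, had 8, 3, 4 and 4. Trp63, the remaining family member, had none in any list.

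Of 31 other p53 targets, 27 had a WT DMSO peak, 25 a WT talazoparib peak, 28 a KO DMSO peak and 27 a KO talazoparib peak, and 22 had one in all 4 lists. Tigar, a regulator of sugar metabolism, had 2, 4, 5 and 4 peaks, and Pml, the scaffold of nuclear bodies, had 4, 1, 4 and 5. Sesn1, the relative of Sesn2, had 3, 2, 5 and 3. Aen, an apoptotic nuclease, had 3, 1, 3 and 5, and Gtse1, which regulates p53 in G2 phase, had 4, 0, 4 and 4. Pidd1, which had as many peaks in all as Aen and Gtse1, had 2, 2, 5 and 3. Eda2r and Fas, both receptors of the TNF receptor superfamily, had none in any list. As shares, the 10 genes stood at 90.0%, 80.0%, 100% and 100%, the regulators at 75%, 75%, 91.7% and 83.3%, and the targets at 87.1%, 80.6%, 90.3% and 87.1%. All 3 sets were above the shares of all protein-coding genes given above in every list, and none of these differences was tested.

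**Figure D4:**
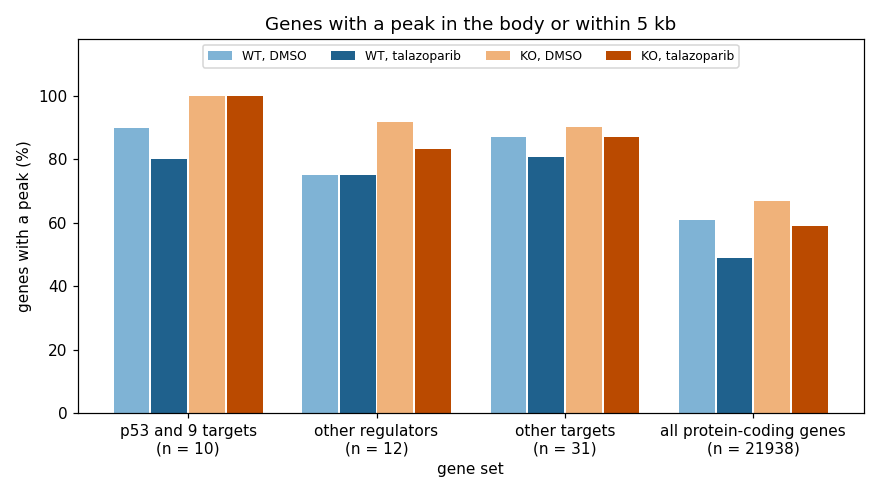
Share of genes (%) with a peak inside the gene or at most 5 kb away for the 10 genes, 12 other p53 regulators, 31 other p53 targets and all 21938 protein-coding genes, 1 bar per list; there are no error bars because each list gives 1 value. All protein-coding genes stand at 48.8% to 66.8%, below the 3 pathway sets.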

How the data were processed

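SSB-seq peaks of 4 conditions were used, from 16 libraries. Per the submitters' processing notes, the build was mm10 and the tools HOMER 4.11, Picard 2.9.2, Bowtie2 2.3.4.2 and R 3.6, with no roles given. Per the file headers, the deposited lists have HOMER's columns and 1 value per peak, so the authors pooled the IP libraries and replicates could not be compared. Of the authors' columns, the normalised tag count and the input tags are signal, the fold is a ratio of scaled IP to input tags, the p-value and HOMER's score belong to each peak, and peak length (bp) and the scaled IP tags are in another unit. The deposited p-value and clonal score entered no result, and the score only ranked peaks within a list. Folds or scores from different lists are not comparable as change.

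IP totals were worked out from the steps of the low normalised values (under 6, all on a step of 0.5 tag within 0.0051); the value of 1 step is inferred, so intervals rest on it. Ratios and overlaps use the chromosomes 1 to 19, X and Y. Python 3.11.15, pandas 2.3.3, numpy 2.4.6 and scipy 1.17.1 were used. Gene windows came from GENCODE M21 on GRCm38.p6, whose chromosome lengths hold every peak. Overlap counting was tested on simulated data.

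The genes, pathway lists and rules were chosen with earlier results of these data known. All 10 genes were named, with the 3 regulators and 5 targets with most peaks (ties by symbol, with Pidd1 named as tied), those with none, and neighbours whose start lay within 1 kb of a peak. RefSeq promoters were printed in place of the planned windows at peak centres, which fall in transcribed sequence, and so include Bax, which is not in all lists. No test per library was run, since the lists hold no value per library. Alternatives changed the window, the overlap, the fold, the input minimum and the list length.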

Additional observations from a re-analysis of the deposited data

How the results depend on the processing

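The counts above were recomputed 110 times under other settings, and 74 stayed within 1.5 times the value given. All 14 results did so with the gene body alone and with 50% of the peak inside the window. They also did so without peaks that lay at the start of another coding gene and not at the gene's own, a setting chosen after seeing the data. That setting removed Bax peaks beside Ftl1 only. It kept the Trp53 start peaks, although a Wrap53 start lies within 1 kb of them, so it does not cover signal shared with Wrap53. With only peaks within 1 kb of a transcript start, there were 11 and 8 peaks with DMSO and talazoparib in WT and 14 and 13 in KO, and regions in both lists, DMSO only and talazoparib only were 6, 5 and 2 in WT and 10, 3 and 2 in KO. With a fold of at least 6, 5 genes had a peak in WT DMSO and 3 in KO talazoparib, and peaks were 6 and 9 in WT and 15 and 6 in KO. Regions in both lists were then 2 in WT and 2 in KO, and WT had 4 with DMSO only and 7 with talazoparib only, the reverse order. At that fold the whole WT lists also changed order, with 10010 peaks with talazoparib against 8256 with DMSO. The shares of all protein-coding genes with a peak were then 31.3% and 27.7%. With at least 3 input tags, peaks were 9 in WT talazoparib and 19 in KO DMSO. Of the whole lists, 6102 of 15526 WT talazoparib peaks and 18955 of 35445 KO DMSO peaks were then left. WT regions were 7 in both and 2 with talazoparib only, and KO regions 4 with DMSO only and 2 with talazoparib only. With equal list lengths, KO DMSO had 17 peaks, WT had 7 regions with DMSO only and 7 with talazoparib only, and KO 4 with DMSO only. When sharing needed 50% reciprocal overlap, regions in both, DMSO only and talazoparib only were 6, 17 and 11 in WT and 9, 21 and 12 in KO. No share over all regions stands beside the region counts under these settings, so they are no result about these genes. The causes of these changes were not tested. Few input tags, a median of 2 to 4 per peak, limit every fold. No paired analysis was possible because the lists hold no value per library, and leaving out a replicate was not possible for the same reason.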
